A study of Mus musculus with 4 samples.

Results

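The genes described here encode the proteins of the mitochondrial ribosome. They were taken as the protein-coding genes whose symbol starts with Mrpl (large subunit) or Mrps (small subunit) followed by a digit, which gave 78 of the 50600 genes listed, 49 of the large and 29 of the small subunit. A further 5 pseudogenes with symbols of the same form were left out. The counts come from RNA-seq libraries of T-helper 2 cells, the CD4 T cells that make interleukin 4, obtained as primary cells of mouse strain C57BL/6NJ and differentiated in culture. The 4 libraries, replicates 1 to 4, form 1 group with no treated, mutant or control arm, and the labels give 1 donor identifier for all of them, with age unknown and sex not collected. The sources used here do not say whether the samples came from separate animals or cultures, so p-values measure only how far these samples differ, and that spread may be technical. The assay is labelled total RNA-seq, while the linked protocol is named for poly(A) RNA, and the file headers add a time of 16 hours that the labels lack.

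The mitochondrial ribosome translates the few mRNAs encoded in mitochondrial DNA, all of them for membrane proteins of the respiratory chain and ATP synthase. Its RNAs come from the mitochondrial genome, whereas all of its proteins are made from nuclear genes and imported. Many of these proteins have relatives in the bacterial ribosome, and others are found only in mitochondria. T cells enlarge their mitochondria when they are activated, and the respiratory chain then depends on this ribosome.

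Library totals ran from 1688658 to 2222583 counts, and 3 counts, the limit that a count of 0 allows, equalled 1.35 to 1.78 CPM, the unit of counts scaled to the library total. Every pair of libraries differed by more than sampling noise (chi-square of 4.12 to 30 per degree of freedom, 4918 genes). The largest values, 29.2 and 30, were those of replicate 3 against replicates 1 and 4. The ribosomal RNA gene CT010467.1, which enters the chi-square, took from 1.29% of the counts in replicate 1 to 9.4% in replicate 3. Its part in these values was not tested, so they are not a measure of how far most genes differ. Of 14 T cell and Th2 markers, 11 had counts in all 4 libraries, with summed levels of 235 to 374 CPM. Highest were Ptgdr2 at 57.3 ± 9.1 TPM, which shares 1031 bases with Ccdc86 on the opposite strand, and Irf4 at 25 ± 6.67 TPM with no opposite exon (SD, n = 4). Il4 was at 7.43 ± 2.3 TPM and Gata3 at 3.83 ± 0.515 TPM (SD, n = 4), whereas the Th2 genes Il5, Il13 and Il1rl1 were at 0. Of 14 markers of other cells, 10 were at 0 in every library, and the list summed to 449 to 557 CPM, nearly all from Csf1r (155 ± 14.5 TPM, SD, n = 4), of which 871 bases lie across from Hmgxb3. The B cell marker Cd79a was at 8.09 ± 2.2 TPM and Cd8b1 at 3.92 ± 2.29 TPM (SD, n = 4), both with no opposite exon, and Ifng had 1 count in all. The part of other cells in the levels below was not tested. In bulk RNA, fewer cells of a type and less RNA per cell cannot be told apart.

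Reads were counted with a strand setting of 1, which assigns a read to a gene only if it lies on the set strand, so where genes on opposite strands overlap this setting alone decides which of them receives the read. The sources used here do not say which strand the library kit marks. Protein-coding nuclear genes whose exons overlap no exon on the other strand number 16953 and held 7.01 ± 1.37% of all counts, while the 4798 with such an overlap held 44.9 ± 1.64% (SD, n = 4). Should the counted strand be the one opposite to the transcripts, the count of a member would hold antisense reads or reads of its opposite gene, so every level below is a level on the counted strand. Levels are given as TPM, counts per kilobase of exon scaled to the same sum over all genes in each library, so that genes of different length can be compared.

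Members held few counts, and those of a few genes outweighed the rest. They had 7427, 7432, 9167 and 8408 counts in replicates 1 to 4, which is 0.434 ± 0.0149% of a library (SD, n = 4). Counts were present in all 4 libraries for 73 of 78 members (93.6%, against 39.0% of protein-coding nuclear genes). They were present in 3 libraries for Mrpl41, Mrpl17, Mrps33 and Mrps36, and in no library for Mrpl53. The median of the members' mean levels was 4.00 TPM, beside 0.128 TPM over all 21751 protein-coding nuclear genes. Mrpl47 and Mrps25 held 62.5 ± 1.19% of all member counts, and with Mrpl46 the share was 67.6 ± 1.77% (SD, n = 4).

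The highest members were among those whose exons overlap an exon on the other strand, though many such members were low. Such an opposite exon, of at least 1 base, was present for 26 members (33.3%, against 22.1% of protein-coding nuclear genes), 18 of the large and 8 of the small subunit. A further 8 members lay across an intron only, and 44 had no gene opposite. The 26 held 93.9%, 93.9%, 94.8% and 93.0% of member counts in replicates 1 to 4, a mean of 93.9 ± 0.741%, and the same share over all protein-coding nuclear genes was 86.6 ± 1.99% (SD, n = 4). Their median level was 11 TPM, against 3.61 TPM with an opposite intron only and 3.28 TPM with no gene opposite. Within each library the median of log2(TPM + 1) was higher with than without an opposite exon, by 1.49, 1.62, 2.03 and 1.78 in replicates 1 to 4, a mean of 1.73 ± 0.23 (SD, n = 4). A pseudocount of 1 makes differences between low genes look smaller than they are. Over all protein-coding nuclear genes the median was 1.29 ± 0.13 with an opposite exon and 0 without one in every library (SD, n = 4). That difference is set by the floor of the scale and cannot be compared in size with the members' 1.73.

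**Figure D1:**
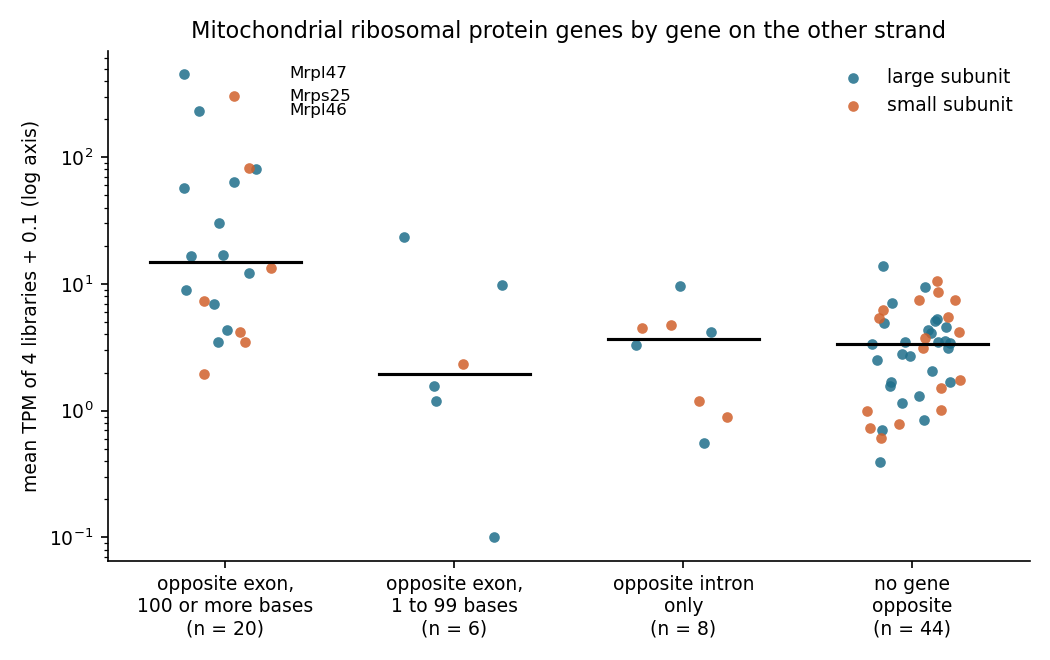
Mean TPM over 4 libraries plus 0.1 (log axis) of each of the 78 members, grouped by what lies on the other strand, with the median of each group as a bar and colours for the subunit. Members sharing 100 or more bases with an opposite exon include the 3 named, highest members, and no member without an opposite exon exceeds 13.8 TPM.

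Levels among these 26 also went with the length of the overlap, with exceptions on both sides. The 20 members that share 100 bases or more with opposite exons had a median of 14.9 TPM, and the 6 that share 1 to 99 bases a median of 1.86 TPM, below that of the members with no gene opposite. Among the 6, Mrpl27 and Mrpl49 stood higher, at 23.2 ± 3.5 and 9.76 ± 2.22 TPM (SD, n = 4). Of the 20, 12 were at 10 TPM or more, while Mrps27 (417 shared bases) and Mrps30 (601) were at 1.85 and 4.07 TPM. Across the 26, Spearman's rho between shared bases and mean TPM was 0.60, as a description over genes of the same 4 libraries. Members whose leading opposite gene overlaps their 3' end (7 genes) had a median of 16.8 TPM, and those overlapped at the 5' end (15 genes) 8.88 TPM. Over all 28 pairs of a member and an opposite gene the shared stretches came to 14103 bases, of which 2417 were coding sequence of the member, 10975 only untranslated region and 711 exons of noncoding transcripts.

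Since the opposite gene most often overlapped the 5' end, the start regions were examined for motifs of NRF1 and other factors known to act at genes of mitochondrial proteins. RefSeq windows of 300 bases around the start (GRCm38.p6, the same assembly as mm10) were matched for 69 of 78 members, with 75 windows in all. Searched on both strands, the NRF1 motif GCGCANGCG was in 21.3% of these windows, against 6.25% of all 32851 windows and 8.58% of protein-coding ones. The ETS motif CCGGAAGT was in 16.0% (3.89% and 5.15%), the YY1 motif AAGATGGC in 16.0% (2.75% and 3.05%) and the TATA box TATAAA in 6.67% (13.6% and 12.6%). The median GC content was 58.7% in the members' windows, 52.7% in all and 56.3% in protein-coding ones. The median number of CpG (a C followed by a G) per window differed more, at 21, 7 and 13. The part of this base composition in the motif shares was not tested. NRF1 matches were in 7 of 23 matched members with an opposite exon and in 9 of 46 without. In the same order, ETS matches were in 6 and 6 members, YY1 matches in 4 and 8, and the TATA box in 2 and 3.

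The start regions below were chosen after the values were seen, for members that stood far below their opposite gene. They are given on the strand of the member, 5' to 3', with matches in capitals, and hold at most 30 bases of untranslated region. Each of those shown carries a match, so they do not stand for all low members. The opposite genes of Mrpl58, Mrps30 and Mrps27 were 173, 115 and 86.6 times as high in TPM as these members. Their windows, cut in the same way, held no NRF1, ETS or YY1 match. In Mrps26 the bases in capitals are an ETS match on the other strand, which is exactly the 8 bases shared with 4930473A02Rik, followed by overlapping NRF1 matches. Mrpl12 and Mrpl9 each carry NRF1 matches (that of Mrpl12 on the other strand, and those of Mrpl9 overlapping on both), and Mrps11, the low partner of Mrpl46, a YY1 match on the other strand. The matches of Mrpl12, Mrpl9 and Mrps11 lie outside the bases shared with their opposite genes. A match is a description of these letters and not a site of binding.
Mrps26, chr2:130563507-130563771, plus strand, GRCm38.p6: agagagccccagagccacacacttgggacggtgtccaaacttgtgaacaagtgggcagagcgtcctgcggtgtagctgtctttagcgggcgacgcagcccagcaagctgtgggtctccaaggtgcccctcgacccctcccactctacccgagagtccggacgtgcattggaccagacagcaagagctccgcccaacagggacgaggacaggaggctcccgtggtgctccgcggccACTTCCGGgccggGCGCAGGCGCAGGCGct
Mrpl12, chr11:120484387-120484642, plus strand, GRCm38.p6: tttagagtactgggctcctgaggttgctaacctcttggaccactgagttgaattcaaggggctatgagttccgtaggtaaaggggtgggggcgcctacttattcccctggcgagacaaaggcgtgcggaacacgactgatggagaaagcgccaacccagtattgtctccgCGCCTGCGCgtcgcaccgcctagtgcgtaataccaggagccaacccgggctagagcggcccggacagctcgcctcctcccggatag
Mrpl9, chr3:94443086-94443385, plus strand, GRCm38.p6: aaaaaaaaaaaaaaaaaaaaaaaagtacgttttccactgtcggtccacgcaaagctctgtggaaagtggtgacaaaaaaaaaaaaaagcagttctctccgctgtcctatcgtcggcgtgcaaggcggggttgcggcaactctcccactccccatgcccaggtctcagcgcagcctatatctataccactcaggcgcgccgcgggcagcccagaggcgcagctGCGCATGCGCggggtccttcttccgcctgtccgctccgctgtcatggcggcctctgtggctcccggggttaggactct
Mrps11, chr7:78782881-78783058, plus strand, GRCm38.p6: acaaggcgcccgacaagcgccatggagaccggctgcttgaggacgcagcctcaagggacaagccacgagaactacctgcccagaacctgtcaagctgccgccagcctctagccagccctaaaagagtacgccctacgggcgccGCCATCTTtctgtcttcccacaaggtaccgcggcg

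Among the large-subunit proteins, Mrpl47 stood first. It is a relative of bacterial protein L29, which lies at the mouth of the tunnel through which the new chain leaves the ribosome. Mrpl47 (chromosome 3, 32725397 to 32737605, minus strand, mm10) had 2385, 2311, 2926 and 2555 counts in replicates 1 to 4, or 462, 454, 443 and 451 TPM. Its level varied little, with a mean of 453 ± 7.96 TPM (SD, n = 4), a coefficient of variation of 1.76%. Its 5' end shares 616 bases with Ndufb5, a subunit of respiratory complex I, and its 3' end shares 452 bases with Actl6a, an actin-like subunit of chromatin remodelling complexes. Ndufb5 had 7, 5, 1 and 11 counts, so Mrpl47 stood 462 times as high per length as this gene and 17.4 times as high as Actl6a, at 26 ± 2.76 TPM (SD, n = 4).

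Mrpl46 and Mrpl48 belong to the central protuberance, the knob at the top of the large subunit. Mrpl46 (chromosome 7, 78775236 to 78783531, minus strand) had 394, 387, 537 and 361 counts, or 239, 237, 254 and 199 TPM, lowest in replicate 4. The gene across from its 5' end is a member too: Mrps11, a protein of the small subunit platform, shares 173 bases of the same chromosome (78783251 to 78783423). Mrps11 had 5, 14, 9 and 9 counts, a level of 3.39 ± 1.56 TPM against 232 ± 23.4 TPM for Mrpl46 (SD, n = 4), so that the members of this head-to-head pair stood 68.4 times apart with no overlap between libraries. Mrpl48 (chromosome 7, 100545751 to 100608301, minus strand) had 693, 758, 968 and 946 counts and 80.9 ± 7.28 TPM (SD, n = 4). It shares 708 bases at its 5' end with Rab6a, a small GTPase of Golgi traffic, which was at 2.87 ± 1.02 TPM (SD, n = 4).

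Mrpl24 and Mrpl19 are relatives of bacterial L24 and L19. Mrpl24 (chromosome 3, 87919506 to 87923672, plus strand) had 168, 165, 188 and 199 counts, or 63.0 ± 5.37 TPM (SD, n = 4), and shares 594 bases at its 3' end with Rrnad1. Rrnad1 itself was higher, at 394 ± 19.9 TPM (SD, n = 4), and also overlaps Isg20l2 on the strand of Mrpl24. Mrpl19 (chromosome 6, 81957851 to 81965958, minus strand) had 377, 347, 448 and 394 counts, or 59.3, 55.3, 55.0 and 56.4 TPM, and shares 1962 bases of 3' untranslated region with Gcfc2. Gcfc2 was at 40.9, 45.0, 37.1 and 42.2 TPM, below Mrpl19 in every library, and at 1.37 times these were the closest in level of any member and its leading opposite gene. Mrpl21 (30.0 ± 3.71 TPM, opposite the helicase gene Ighmbp2 by 117 bases) and Mrpl13 (16.5 ± 0.725 TPM, opposite Mtbp by 330 bases) also stood above their opposite genes, which were at 6.07 ± 1.11 and 2.08 ± 0.352 TPM (SD, n = 4).

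Other large-subunit members stood far below the gene across from them. Mrpl27, the relative of bacterial L27 that reaches towards the peptidyl transferase centre, had 21, 30, 36 and 30 counts and shares 75 bases with Eme1, an endonuclease subunit at 386 ± 7.65 TPM (SD, n = 4). The stalk proteins Mrpl10 and Mrpl12, which help recruit translation factors, both lay opposite a noncoding gene. Mrpl10 had 38, 31, 40 and 37 counts (16.8 ± 1.58 TPM), and Gm11574, 240 bases of which are shared, was at 620 ± 13.4 TPM (SD, n = 4). Mrpl12 had 18, 19, 17 and 40 counts, or 10.1, 10.8, 7.43 and 20.4 TPM, highest in replicate 4, and surrounds the noncoding gene Gm16755, with which it shares 200 bases. At 4600 ± 171 TPM (SD, n = 4), Gm16755 was 379 times as high as Mrpl12, the widest gap in this direction among members with counts. Mrpl18 (8.88 ± 3.75 TPM) lay opposite Tcp1, a subunit of the cytosolic chaperonin, at 327 ± 22.1 TPM, and Mrpl9 (4.20 TPM) opposite Oaz3, known as an antizyme of the testis, at 230 ± 7.4 TPM (SD, n = 4).

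Mrpl53 was the member with no count in any library, and 3 counts over its full exon length would put it at 2.54 to 3.3 TPM. Of its exon bases, 88% (695 bases) are shared with Gm42688 on the same strand, and reads in such a stretch cannot be assigned to a single gene. Across from its 5' end, Ccdc142os, which shares 15 bases, was at 159 ± 6.15 TPM (SD, n = 4).

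In the small subunit, 1 gene outweighed the others. Mrps25, a protein found in mitochondrial but not in bacterial ribosomes, lies on chromosome 6 (92169525 to 92184033, minus strand) and had 2325, 2362, 2836 and 2551 counts, or 303, 312, 289 and 302 TPM. With 4590 bases of 3' untranslated region, 69.8% of its exon length, it shares more with its opposite gene than any other member. That gene, the nuclear receptor Nr2c2, was at 19.3 ± 2.08 TPM, and Mrps25, at 301 ± 9.56 TPM, stood 15.6 times as high (SD, n = 4). Mrps7, a relative of bacterial S7 in the head of the subunit, came next (chromosome 11, 115603925 to 115608036, plus strand), with 172, 204, 249 and 237 counts and 81.5 ± 7.83 TPM (SD, n = 4). It is overlapped at both ends, by 127 bases of Gga3, a Golgi adaptor at 14.2 ± 4.08 TPM, and by 119 bases of Mif4gd at 4.81 ± 1.74 TPM (SD, n = 4).

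The other 6 small-subunit members with an opposite exon were all below the gene across from them. Mrps34 (chromosome 17, 24895116 to 24897502, plus strand) lies inside Mapk8ip3, a scaffold gene of the JNK pathway, and shares 1309 bases with it. It had 32, 20, 42 and 47 counts, or 13.3, 8.41, 13.6 and 17.8 TPM, against 179 ± 7.61 TPM for Mapk8ip3 (SD, n = 4), and 763 of its exon bases also belong to Nme3 on its own strand. Mrps30 was at 4.07 TPM opposite B430218F22Rik at 467 ± 55.2 TPM, Mrps18b at 7.29 ± 1.09 TPM opposite Gm16279 at 440 ± 21.3 TPM, and Mrps27 at 1.85 TPM opposite 6430562O15Rik at 160 ± 10.1 TPM (SD, n = 4). Mrps26 (50 counts in all, 2.23 TPM) shares only 8 bases with 4930473A02Rik, which was at 531 ± 18.9 TPM (SD, n = 4), so the largest gaps were not confined to long overlaps.

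**Figure D2:**
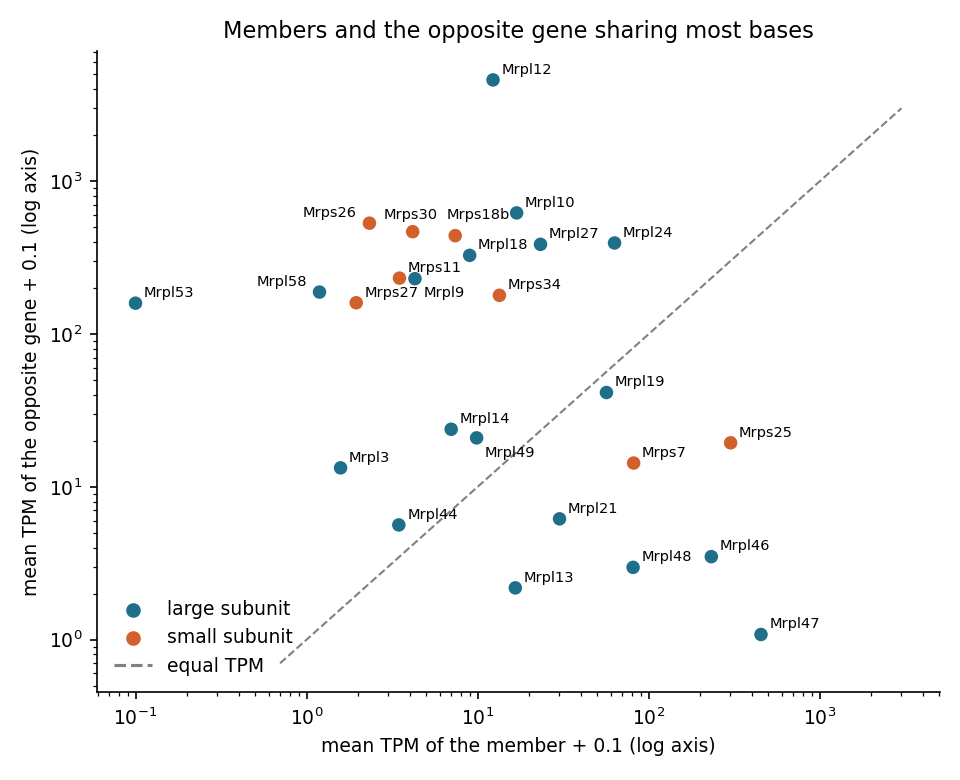
Mean TPM plus 0.1 of each of the 26 members with an opposite exon (horizontal, log axis) against that of the opposite gene sharing most bases with it (vertical, log axis), with the dashed line at equal TPM. Points lie above the line for 18 members and below it for 8. Mrpl53, with no count, lies farthest left and farthest above the line, and Mrpl47 farthest below it.

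Taking for each of the 26 members the opposite gene that shares most bases, that gene had the higher mean TPM in 18 pairs and the member in 8 (Mrpl13, Mrpl19, Mrpl21, Mrpl46, Mrpl47, Mrpl48, Mrps7 and Mrps25). The order was the same in all 4 libraries for 25 of the 26, with Mrpl44 opposite Wdfy1 (3.36 and 5.53 TPM) as the exception. In 13 pairs the opposite gene was 10 times as high or more, Mrpl53 with its count of 0 included, and in 4 pairs (Mrpl46, Mrpl47, Mrpl48 and Mrps25) the member was. For Mrpl53 the size of the gap is not known, since most of its exon bases are shared with a gene on its own strand. Spearman's rho between the mean TPM of member and opposite gene was -0.34 over the 26 pairs, a description in which Mrpl46 and Mrps11 enter from both sides. Neither these counts of pairs nor rho were taken over all genes with an opposite exon. Whether they are particular to the members was not tested. The median was 11 TPM for the members and 160 TPM for their leading opposite genes. The 26 opposite genes that are not members held 1.28 ± 0.0204% of a library (SD, n = 4). Several of them overlap yet another gene on the strand of the member, as 12 of the 28 pairs do, among them Eme1 with Lrrc59, Tcp1 with Acat3, Oaz3 with Tdrkh and 4930473A02Rik with Ptpra.

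Without an opposite exon, no member exceeded a mean of 13.8 TPM over the 4 libraries, and neighbouring members in the order did not stand apart. Mrpl54 was the highest of these 52, with 17, 16, 7 and 16 counts (95% exact Poisson intervals 9.9 to 27.2, 9.15 to 26, 2.81 to 14.4 and 9.15 to 26, which cover counting error only). Its levels of 17.7, 16.8, 5.68 and 15.1 TPM were lowest in replicate 3. Mrps18c, 1 of the S18 relatives of the small subunit, had 13, 14, 17 and 13 counts (10.4 ± 0.772 TPM, SD, n = 4), and 250 of its exon bases also belong to Gm43511 on the same strand. Mrpl40, of the central protuberance, had 18, 15, 15 and 10 counts (9.53 ± 2.75 TPM) and Mrpl43 had 16, 9, 19 and 14 (9.31 ± 2.13 TPM, SD, n = 4). The small-subunit genes Mrps14 and Mrps15, relatives of bacterial S14 and S15, were at 8.53 ± 1.41 and 7.42 ± 4 TPM (SD, n = 4). Mrps15 split into 22 and 23 counts in replicates 1 and 4 and 7 and 11 in replicates 2 and 3. Mrps16 had 5, 6, 5 and 5 counts on a short transcript (7.39 ± 1.38 TPM), and Mrpl38, also of the central protuberance, 19, 24, 23 and 24 (6.98 ± 0.964 TPM, SD, n = 4). From Mrps18c to Mrpl38 each level lay within the spread of the next.

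**Figure D3:**
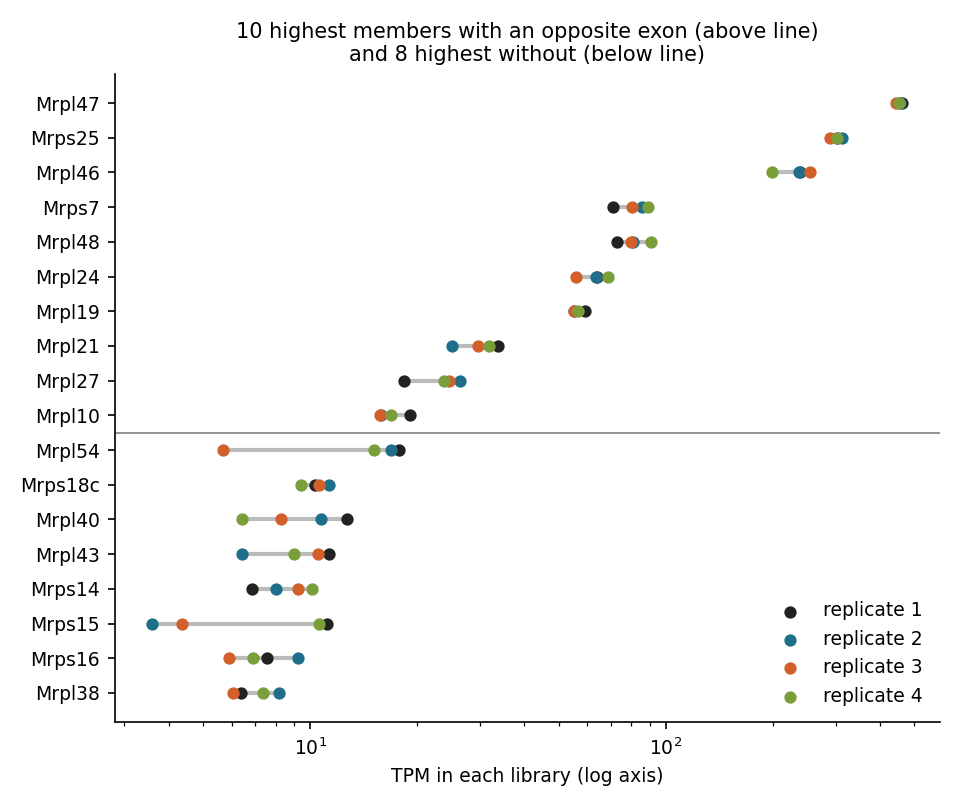
TPM in each of the 4 libraries (log axis) of the 10 highest members with an opposite exon and the 8 highest without, points coloured by replicate and joined by a grey line from lowest to highest. Mrpl47, Mrps25 and Mrpl46 lie at 199 TPM or above in every library, while Mrpl54 and Mrps15, with few counts, spread widest.

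Large and small subunit did not differ in level beyond the spread between libraries. The large subunit held 62.7 ± 0.407% of member counts (SD, n = 4) with 62.8% of the members. That share leans on the leading gene of each subunit and does not compare the subunits gene by gene. Mrpl47 gave 10177 of the 20333 large-subunit counts, and Mrps25 gave 10074 of the 12101 small-subunit counts. Medians of the mean levels were 3.97 TPM for the large and 4.04 TPM for the small subunit. On the log2(TPM + 1) scale the difference of medians, large minus small, was 0.20, 0.60, -0.02 and -0.15 in replicates 1 to 4, a mean of 0.16 ± 0.33 (SD, n = 4), with libraries on both sides of 0. It turned to -0.03 among members with no opposite exon. Names and positions are not the same in every case, since Mrps18a and Mrps30 sit in the large subunit in known structures and Mrps36 has been assigned to the oxoglutarate dehydrogenase complex.

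Summed over genes, the 52 members without an opposite exon came to 269, 265, 215 and 314 CPM in replicates 1 to 4, lowest in replicate 3 and highest in replicate 4. All protein-coding nuclear genes without an opposite exon came to 71800, 66900, 54300 and 87500 CPM, in the same order of libraries. As a share of that sum the members took 0.375%, 0.396%, 0.395% and 0.358%. The 26 members with an opposite exon came to 4130, 4090, 3910 and 4160 CPM. CT010467.1 was highest in replicate 3, and its part in the low sums there was not tested.

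**Figure D4:**
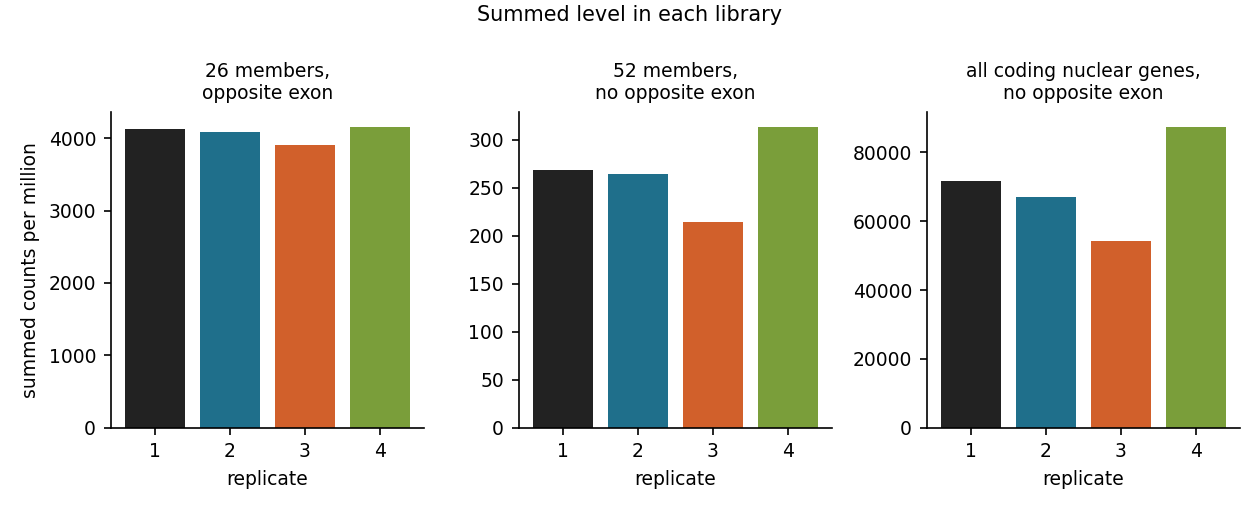
Summed CPM in replicates 1 to 4 of the 26 members with an opposite exon, the 52 without, and all protein-coding nuclear genes without an opposite exon, each panel with its own axis from 0. Replicate 3 is lowest and replicate 4 highest in the panels without an opposite exon, at 215 and 314 CPM for the members.

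None of the 23 members tested was called as varying between the replicates beyond what its abundance predicts. The test compared each gene's variance in a fit across all genes with that predicted, in edgeR's quasi-likelihood framework, one-sided, with Benjamini-Hochberg adjustment. Of the 23 members with enough counts to enter, 0 passed an adjusted p of 0.05, where 22 of 4918 genes did (0.447%). At an unadjusted p under 0.05 the members again numbered 0, against 281 of all genes, and limma on log2(CPM + 1) and DESeq2's dispersion outliers also gave 0 members. At a background of 0.447% a count of 0 among 23 is not a result about the members, and neither is the 0 at an unadjusted p. Mrpl46 had the largest ratio of observed to predicted variance, 2.07 (edgeR adjusted p = 0.961), with its highest and lowest levels in replicates 3 and 4 at 254 and 199 TPM. Mrps5 (23, 11, 29 and 40 counts) followed at 2.06 and the stalk gene Mrpl12 at 1.86, with adjusted edgeR p of 0.961 and 0.965. The smallest was that of Mrpl24, 0.0446. The other 55 members did not pass its count filter.

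**Figure D5:**
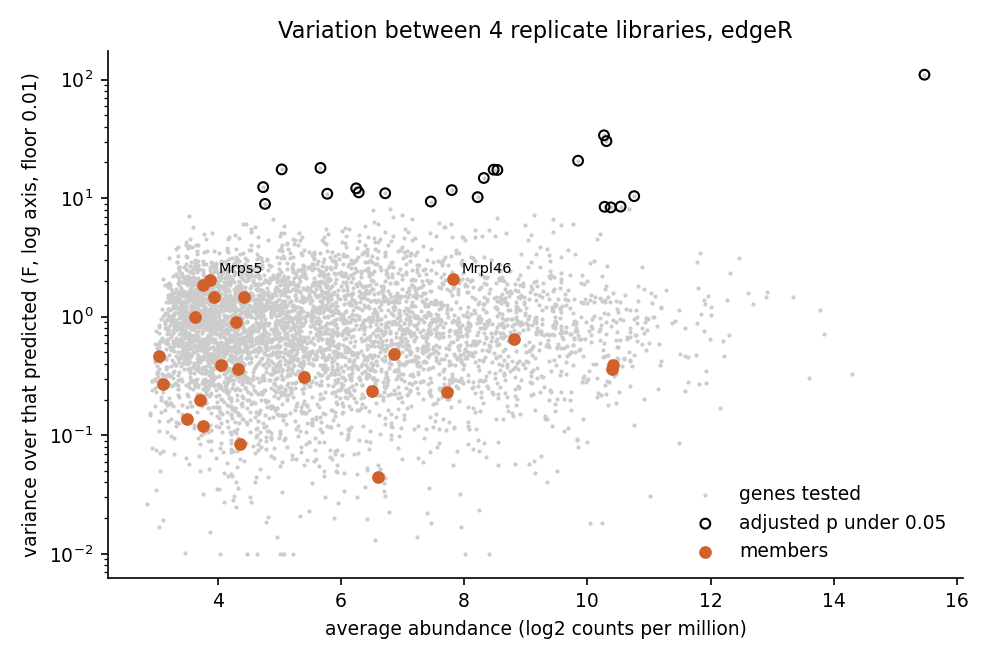
Ratio of observed to predicted variance between the 4 libraries (F, log axis, values below 0.01 drawn there) against average abundance in log2 CPM, for 4918 genes tested with edgeR. The 22 genes with an adjusted p under 0.05 are circled, and the 23 members (filled) all lie among the other genes, with Mrpl46 and Mrps5 highest.

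In 4 of 5 lists of other mitochondrial translation genes, the highest gene had an opposite exon. Of the 5 subunit genes without an Mrp symbol, Gadd45gip1 had 2042, 1980, 2275 and 2168 counts (670 ± 40.7 TPM, SD, n = 4), above every member. Dap3, a GTP-binding protein of the small subunit, was at 8.11 ± 1.59 TPM (SD, n = 4), opposite Ash1l. Among 11 translation factors the initiation factor gene Mtif3 led at 368 ± 23.6 TPM, opposite Gtf3a by 1505 bases, and the recycling factor gene Mrrf followed at 24.8 ± 0.442 TPM, opposite Rbm18 (SD, n = 4). The 6 factors with an opposite exon had a median of 20.8 TPM and the 5 without one of 0.631 TPM.

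Of 24 ribosome assembly factors 17 had counts in all 4 libraries. Mrm1, a methyltransferase of the mitochondrial large ribosomal RNA, was highest at 37.4 ± 4.21 TPM and has no opposite exon, so this list did not follow the split at its top, and Ybey was at 31.5 ± 4.03 TPM opposite 2610028H24Rik (SD, n = 4). Medians in this list were 3.65 TPM for the 13 genes with an opposite exon and 1.09 TPM for the 11 without. Among the 17 mitochondrial aminoacyl-tRNA synthetases, the 7 with an opposite exon had medians of 0.492, 0.636, 0.647 and 1.86 TPM in replicates 1 to 4, and the 10 without 1.51, 1.61, 0.935 and 1.31 TPM. The order of these low medians turned in replicate 4, and the 7 held 4278 counts against 737 for the 10. Hars2, which charges histidine tRNA, led them at 157 ± 7.27 TPM, across from its cytosolic counterpart Hars by 195 bases, and Fars2, for phenylalanine, was at 26.9 ± 7.67 TPM with no opposite exon (SD, n = 4). Of 5 genes for mRNA stability and membrane insertion, Slirp, an RNA-binding protein that stabilises mitochondrial mRNAs, was at 932 ± 59.2 TPM opposite Snw1 by 1067 bases, and Letm1 at 2.84 ± 0.812 TPM (SD, n = 4). None of these lists was tested as a set.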

How the data were processed

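The 4 deposited tables give read-pair counts for every gene, made with featureCounts 1.4.6-p4 on mm10 and GENCODE M13 (exons joined by gene, option 1 for strand, pairs kept only if both ends aligned), per the file headers. The sources used here do not name the aligner. Counts were not normalised by the authors.

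Replicate numbers come from the labels. Symbols, gene types and coding bases came from GENCODE M21 (GRCm38), matched by gene identifier for 99.6% of genes, and genes without a symbol held 0.556% of counts. TPM was computed from counts and deposited lengths. Opposite exons were found with bedtools 2.31.1 in the tables' coordinates. Variation between replicates was tested in edgeR 4.0.16 (TMM factors, filterByExpr, an intercept as the design, robust fit, upper tail of the quasi-dispersion over its trended prior with 3 residual degrees of freedom), after a test on simulated data. DESeq2 1.42.0 and limma 3.58.1 were alternatives, with R 4.3.3, Python 3.11.15, pandas 2.3.3 and scipy 1.17.1.

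The members and gene lists were chosen with earlier results of these data known. Named are the 10 highest members with and the 8 highest without an opposite exon, the 5 with the longest overlap, members passing the variation test or without counts, their leading opposite genes, and the 2 highest genes of each list. Other members and list genes named were chosen after their values were seen.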

Additional observations from a re-analysis of the deposited data

How the results depend on the processing

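Counts are low, and 55 members did not pass the count filter of the variation test, while 37 members were tested at a mean count of 10 or more and 77 with no filter. No paired analysis was possible because the 4 libraries form 1 group. Members that passed the variation test numbered 0 under every alternative run, which were other size factors, count filters and tools and each replicate left out. The count over all genes was 3 with library totals only, 14 without CT010467.1, 56 with no filter on low counts and 44 with a mean count of 10 or more, and 11 to 21 with a replicate left out, against 22. The share of member counts with an opposite exon (93.9%) was 92.9% when 100 shared bases were asked for, 92.5% with only protein-coding genes opposite and 81.2% without Mrpl47, Mrps25 and Mrpl46, an alternative added after seeing the data. The median difference with minus without an opposite exon (1.73 on the log2 scale) was 2.05 with a pseudocount of 0.1, 2.17 with 100 shared bases, 2.53 with only protein-coding genes opposite and 2.00 with TPM scaled over protein-coding nuclear genes. The difference between subunits (0.16) turned to -0.03 among members with no opposite exon, and to -0.05 with Mrps18a and Mrps30 counted in the large subunit and Mrps36 left out, also added after seeing the data. Levels of the 19 named members with counts were 4.04 to 4.55 times as high in TPM over protein-coding nuclear genes. With a replicate left out they moved by less than 1 SD in all 76 values. A mean of 4 libraries cannot move by 1 SD when 1 of them is left out, so this says nothing about stability. The causes of the changes given above were not tested.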
